A study of Mus musculus with 4 samples.

Results

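Ubiquitin specific proteases (USPs) form the biggest family of deubiquitinases, the enzymes that cut ubiquitin from other proteins. The members described here are the genes of the deposited count table whose symbol is Usp followed by a number, with Usp7, Usp18 and Usp9y left out. That rule gave 53 genes of the 24421 in the table. The family was selected on the read counts of Usp33, which an earlier analysis of the same 4 libraries had found higher in mutant cells. Its values, and those of the other members in the same contrast, are therefore given as a description and not as independent evidence.

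The cells were LSK cells (lineage-negative, Sca1-positive, Kit-positive), the bone marrow fraction that contains the blood stem cells and the earliest progenitors. They were sorted from mice aged 13 to 15 months. One group was wild type (WT), with 2 libraries, and the other, p53R248W/+, carried 1 mutant p53 allele beside a normal one, with 2 libraries. The R248W change is a missense mutation in the part of p53 that contacts DNA. The strain, the sex, how the allele was introduced, and whether the replicates came from separate animals are not given in the sources used here. The p-values below therefore rest on the spread among 4 libraries, and part or all of that spread may be technical.

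Ubiquitin is attached to proteins by a cascade of activating, conjugating and ligating enzymes, and marks them for the proteasome, for endosomal sorting or for signalling. USPs reverse this step, each on its own set of substrates. Most are cysteine proteases whose active-site cysteine lies in a conserved stretch called the Cys box. Several act on p53 or on its ligase Mdm2, others act on histones H2A and H2B, and both groups have been studied in blood stem cells.

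The Cys box is what most members share by sequence, and the stretches below show it for Usp33, for Usp20, which like Usp33 is known to bind the von Hippel-Lindau protein, and for the 4 members with the lowest unadjusted p after Usp33. Each is 48 coding bases of a GENCODE M21 transcript (GRCm38, the assembly also called mm10), written 5′ to 3′ on the coding strand, with the codon of the active-site cysteine in capitals.
Usp33: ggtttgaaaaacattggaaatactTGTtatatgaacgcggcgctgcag
Usp20: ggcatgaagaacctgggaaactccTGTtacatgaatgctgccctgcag
Usp21: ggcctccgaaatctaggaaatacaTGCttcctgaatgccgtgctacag
Usp37: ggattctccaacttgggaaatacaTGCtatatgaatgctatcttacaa
Usp27x: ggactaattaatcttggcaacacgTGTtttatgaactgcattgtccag
Usp2: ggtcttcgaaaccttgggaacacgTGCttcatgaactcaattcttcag

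The Usp33 stretch lies in exon 7 of 24 (chr3:152363986-152364033, plus strand) and the Usp20 stretch in exon 8 of 25 (chr2:31004940-31004987, plus strand). The Usp27x stretch lies in that gene's single exon (chrX:7374580-7374627, minus strand). The other stretches each cross an intron: Usp21 from exon 3 (chr1:171285352-171285565, minus strand), Usp37 from exon 11 (chr1:74471641-74474987, minus strand) and Usp2 from exon 3 (chr9:44089159-44090053, plus strand). Usp20 matched Usp33 at 36 of the 48 bases, Usp2, Usp21 and Usp37 each at 31 and Usp27x at 29. Across the 47 other members compared, the match to Usp33 ranged from 25 to 37 bases, with a median of 31; the highest match was that of Usp43, and Usp14 was not compared. A Cys box was sought as an amino acid pattern of fixed spacing, which was found in the reading frame of 49 of the 53 members. The pattern was not found in Usp39, a splicing factor of the USP fold, in Usp53, in Usp54 or in Usp6nl. Usp53 and Usp54 were both long regarded as having little or no protease activity. A Cys box of another spacing would have been missed, so these 4 genes are not shown to lack one. Usp6nl matches the naming rule but is a GTPase-activating protein for Rab5, not a deubiquitinase.

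Libraries held 12111126 to 14820759 counted reads. Values are in CPM (counts scaled to library size with the TMM method), and levels between genes are compared only per kilobase of exon length. A gene was tested where it passed the standard filter on low counts, which 13296 genes did, and no gene passed an adjusted p of 0.05 in edgeR's quasi-likelihood test (0 higher, 0 lower; 780 genes, or 5.87%, at an unadjusted p under 0.05). DESeq2 on the same genes called 3 higher and 3 lower (0.0226% each). With edgeR's likelihood ratio test the calls were 3 higher (0.0226%) and 1 lower (0.00752%), with DESeq2 on unfiltered counts 5 higher (0.0374%) and 8 lower (0.0598%), and with limma-voom 0 and 0. The 10 LSK markers listed were all detected and summed to 3504 and 3865 CPM for WT and to 4235 and 4163 CPM for p53R248W/+. Of 6 genes of B cells, which the sort removes, 5 were detected and Pax5 was at 0 everywhere. Their sum was 6.83 and 10.4 CPM for WT but 25.8 and 18.5 for p53R248W/+. Most of it was Cd79b (4.67 and 8.98 CPM for WT, 20.2 and 12.1 CPM for p53R248W/+). The LSK and B cell sums were thus both higher in p53R248W/+, and their part in the values below was not tested. The largest parts of the LSK sum were Kit and Hlf. Kit was at 911 and 998 CPM for WT and at 1182 and 1105 CPM for p53R248W/+. Hlf was at 929 and 1141 CPM for WT and at 1197 and 1265 CPM for p53R248W/+. Of the 10 LSK markers, the genotypes did not overlap for 2 that were higher and 2 that were lower in p53R248W/+. Over all tested genes these shares were 16.9% and 16.6%. The sums of the other marker lists overlapped between genotypes for T and NK cells (6 genes, Cd3g at 0, 65.9 to 82.3 CPM), monocytes and neutrophils (5 genes, 76.1 to 114 CPM) and mast cells and basophils (6 genes, 363 to 407 CPM, most of it Gata2, which stem cells also express). Most of the monocyte and neutrophil sum was Itgam (54.4 to 96.0 CPM, log2 fold change -0.20). S100a8, Ltf and Csf1r had log2 fold changes of 0.87, 0.42 and 0.88, with overlapping genotypes. For S100a9 it was 1.02 (0.35 and 5.82 CPM for WT, 5.87 and 6.69 CPM for p53R248W/+, no overlap). The part of these genes in the values below was not tested. In the mast cell and basophil list was Mcpt8, a protease of basophils. It measured 0.84 and 1.82 CPM for WT and 2.83 and 13.2 CPM for p53R248W/+. Its log2 fold change was 2.50 (unadjusted p = 0.034, adjusted p = 0.824 with edgeR's quasi-likelihood test), with p53R248W/+ replicate 2 far above replicate 1. For Cpa3 the genotypes only just did not overlap (20.6 and 15.4 CPM for WT, 20.8 and 27.4 CPM for p53R248W/+, log2 fold change 0.40). The gap between its nearest WT and p53R248W/+ libraries was far smaller than the gap within either genotype. The genotypes overlapped for Ms4a2, Prss34, Fcer1a and Gata2 (log2 fold changes 0.10, -0.07, 0.15 and -0.14). The part of Mcpt8 in the values below was not tested. The erythroid sum was 10.3 and 9.19 CPM for WT and 13.6 and 13.2 CPM for p53R248W/+, with Hba-a1 and Hbb-bt at 0 everywhere. Most of it was the single gene Alas2 (10.3 and 7.15 CPM for WT, 13.1 and 12.9 CPM for p53R248W/+). The part of this sum was not tested either. In bulk RNA, fewer cells of a type and less RNA per cell cannot be told apart. Gene counts do not separate the alleles of Trp53, so the genotype labels could not be checked.

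Of the 53 members, 45 passed the filter and were tested. Of the other 8, the 7 genes Usp17la, Usp17lb, Usp17lc, Usp17ld, Usp17le, Usp26 and Usp29 had 0 counts in every library, which leaves a level of up to 0.202 to 0.248 CPM open per library (3 counts, counting error only). Usp43 had 1 and 17 counts in WT and 0 and 0 in p53R248W/+. The Usp17l genes are near-identical copies of each other, so reads from them could also have been lost in counting.

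Most members were well expressed in LSK cells. Per kilobase, 34 of the 45 tested members had a mean of at least 10 CPM per kb and 8 were under 5. The highest mean was that of Usp25 (52.4 and 57.8 CPM per kb in WT, 60.3 and 61.4 in p53R248W/+), an enzyme of inflammatory and antiviral signalling. Usp24, Usp9x and Usp34 followed at 52.1 to 60.1, 52.6 to 55.7 and 47.9 to 52.8 CPM per kb over the 4 libraries. The ranges of Usp25, Usp24 and Usp9x overlap, as do those of Usp24, Usp9x and Usp34, so these neighbours in the order do not differ beyond their spread. Usp33 had the fourth highest mean through its p53R248W/+ values. Usp9x acts on many substrates in growth and apoptosis, and Usp34 acts on axin in Wnt signalling. Usp8, which releases ubiquitin from cargo at the endosome, was at 39.4 to 45.9 CPM per kb and lay below these. Usp47 (29.7 to 40.7), Usp1 (27.0 to 40.8), Usp54 (30.5 to 35.7) and Usp22 (27.3 to 38.5 CPM per kb) came next, with ranges that overlapped each other; that of Usp1 and that of Usp47 also reached the lowest Usp8 value. Usp20 was far lower, at 1.59 to 4.19 CPM per kb.

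**Figure D1:**
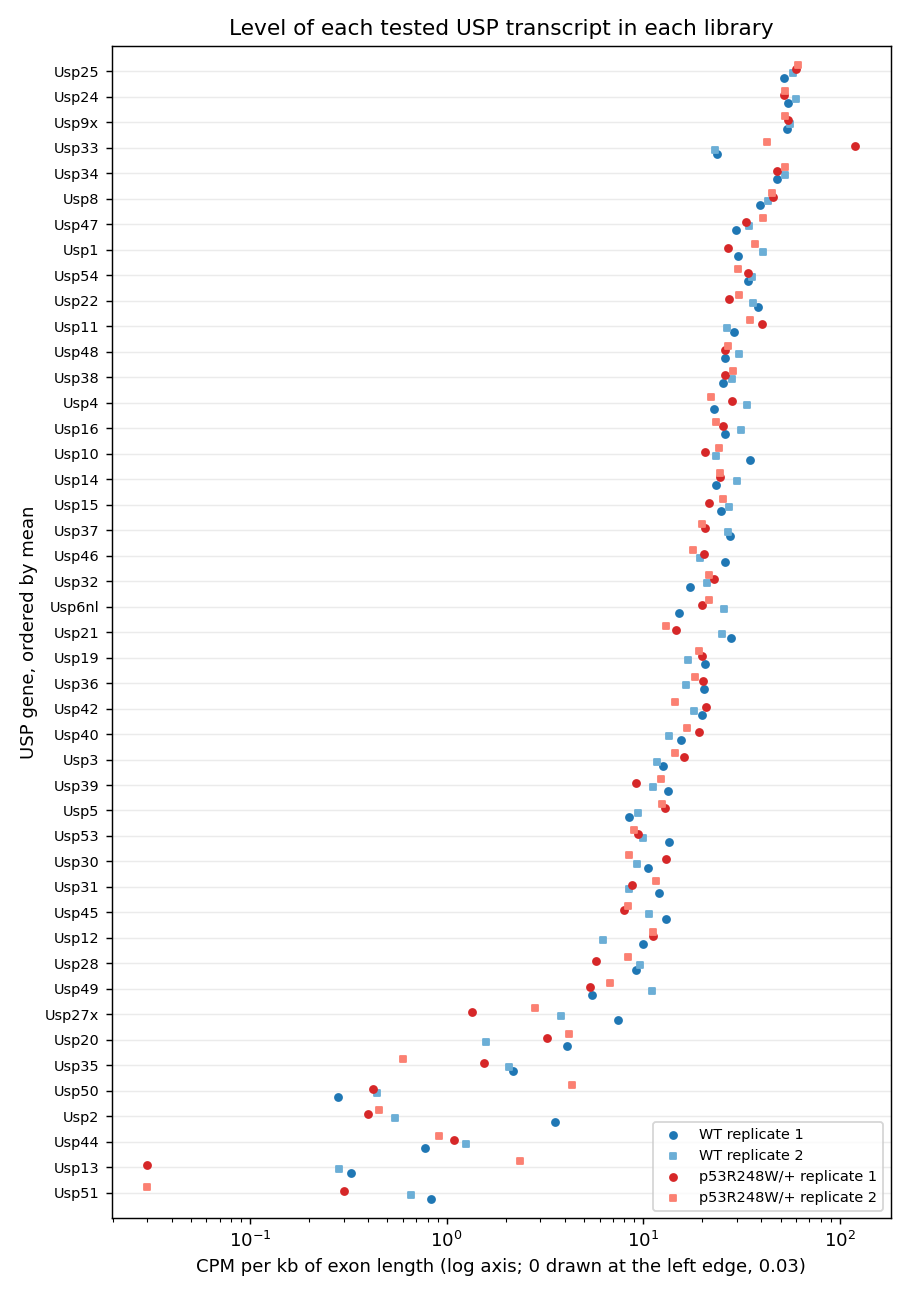
Level of each of the 45 tested USP transcripts in the 4 libraries, in CPM per kilobase of exon length on a log axis, with 1 point per library and genes in order of their mean. Usp33 stands at 23.7 and 23.2 CPM per kb in the WT libraries and at 119.8 and 42.6 in the p53R248W/+ libraries, while most other well expressed members have their 4 points close together.

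Usp33 was the member whose level differed most between libraries among the well expressed ones. The gene lies on chromosome 3 (mm10, 152346478 to 152393614, plus strand, 24 exon blocks) and shares no exon bases with another gene of the table. Usp33 acts on membrane receptors and their adaptors, among them beta-arrestins and the guidance receptor Robo1, and on the centrosome protein CP110. Usp33 was counted at 1425 and 1389 reads in WT, or 99.4 and 97.4 CPM. In p53R248W/+ it was counted at 7444 and 2163 reads, or 502 and 179 CPM. Both p53R248W/+ libraries lay above both WT libraries, the WT libraries were nearly equal, and p53R248W/+ replicate 1 was 2.81 times replicate 2.

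The fitted log2 fold change of Usp33 was 1.80 ± 0.49 (SE, n = 2 per genotype), 3.49-fold higher in p53R248W/+, with a 95% interval from 0.60 to 3.01. It did not pass over all genes in edgeR's quasi-likelihood test (adjusted p = 0.824, unadjusted p = 0.0107). The size of the difference rests on p53R248W/+ replicate 1: the log2 fold change was 0.86 without that library and 2.35 without p53R248W/+ replicate 2. Leaving out a WT library gave 1.81 or 1.79. Each of these fits leaves 1 library in a genotype, which is assumed to vary like the other genotype. The likelihood ratio test of edgeR called Usp33 (adjusted p = 0.00407), whereas DESeq2 on the same genes gave an adjusted p of 0.592 and DESeq2 on unfiltered counts one of 0.00245. Among the 4538 genes with a mean of at least 50 CPM, 8 genes, Usp33 included, had a ratio of p53R248W/+ replicate 1 to replicate 2 at least as high as that of Usp33. Replicates of either genotype differed by at least that factor, in either direction, for 37 of the 4538.

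By level per kilobase, Usp33 ranked 19th and 21st of the 45 tested members in the WT libraries. It ranked 1st in p53R248W/+ replicate 1 and 6th in replicate 2. Its share of all reads of the family was 1.79% and 1.68% in WT and 8.63% and 3.19% in p53R248W/+. The summed level of the other 52 members was 5442 and 5686 CPM for WT and 5313 and 5428 CPM for p53R248W/+, so the rest of the family was at nearly the same total in all 4 libraries, with the p53R248W/+ values just below.

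The genes nearest to Usp33 on chromosome 3 did not share its pattern. Zzz3, the next gene by start position, was at 247 and 206 CPM for WT and at 235 and 243 CPM for p53R248W/+. Fam73a on the other side was at 52.7 and 93.4 CPM for WT and at 80.4 and 73.2 CPM for p53R248W/+. Further out, Fubp1 and Dnajb4 were at 365 to 421 and 185 to 210 CPM over the 4 libraries. None of these 4 neighbours was separated by genotype, and their log2 fold changes lay between -0.01 and 0.08. Nexn, Pigk, Ak5 and St6galnac5 also had overlapping genotypes, with log2 fold changes of 0.29, 0.16, 0.52 and -1.58. AI115009 was at 0 in every library. Of the 10 neighbours examined, Gipc2, the farthest on one side, was higher at an unadjusted p under 0.05. At that line 3.01% of all tested genes were higher. Gipc2 had a log2 fold change of 2.63 and did not pass over all genes. It was scarce, at 0.49 and 0.84 CPM for WT and at 4.45 and 3.80 CPM for p53R248W/+, and its mutant libraries were close to each other, unlike those of Usp33.

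**Figure D2:**
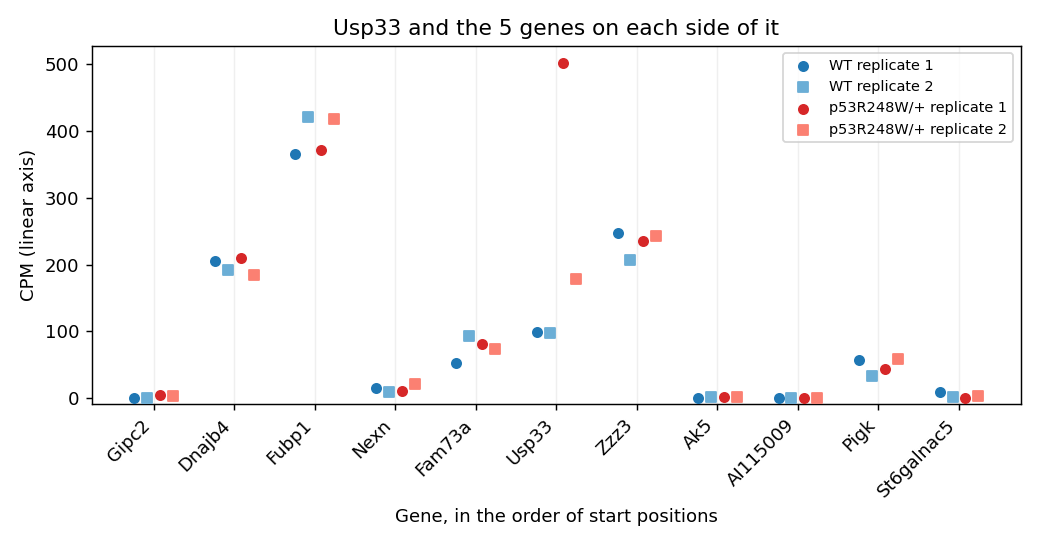
CPM of Usp33 and of the 5 genes on each side of it, in the order of their start positions, with 1 point per library on a linear axis. Only Usp33 has a p53R248W/+ replicate 1 value (502 CPM) well above the other 3 points; Zzz3, Fubp1, Dnajb4 and Fam73a have overlapping genotypes.

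Usp20, which like Usp33 acts on the beta2-adrenergic receptor and on the thyroid hormone deiodinase, did not follow it. Usp20 was at 17.0 and 6.59 CPM for WT and at 13.6 and 17.4 CPM for p53R248W/+, so the genotypes overlapped. Its log2 fold change was 0.37 ± 0.59 (SE), and it turned to -0.14 without WT replicate 2. Of 13 matched genes for reported substrates and partners of Usp33 and Usp20, all were tested, 1 was higher and 0 were lower at an unadjusted p under 0.05 (3.01% and 2.86% of all tested genes), and none passed over all genes. The 1 was Epas1, which encodes the hypoxia factor HIF-2 alpha, at 3.91 and 15.6 CPM for WT and at 27.0 and 19.8 CPM for p53R248W/+. The Epas1 log2 fold change of 1.28 ± 0.59 (SE) was 0.60 without WT replicate 1.

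Over the 45 tested members, 19 had a positive and 26 a negative log2 fold change, and their median was -0.10, where that of all tested genes was -8.8e-05. Without WT replicate 2 the members' median was 0.0084, where that of all genes tested in that fit was 0.056. No member passed over all genes in edgeR's quasi-likelihood test (0 higher, 0 lower); 5 members were at an unadjusted p under 0.05. Of these, 1 was higher (Usp33; 3.01% of all tested genes were higher at that line) and 4 were lower (Usp21, Usp37, Usp27x and Usp2; 2.86% of all tested genes). The genotypes did not overlap for 9 members that were higher and 12 that were lower in p53R248W/+, where 16.9% and 16.6% of all tested genes did so. Members were chosen with this contrast known, so these counts are given without a reading. For 27 of the 45 the 95% interval of the log2 fold change lay within 1 on either side of 0.

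**Figure D3:**
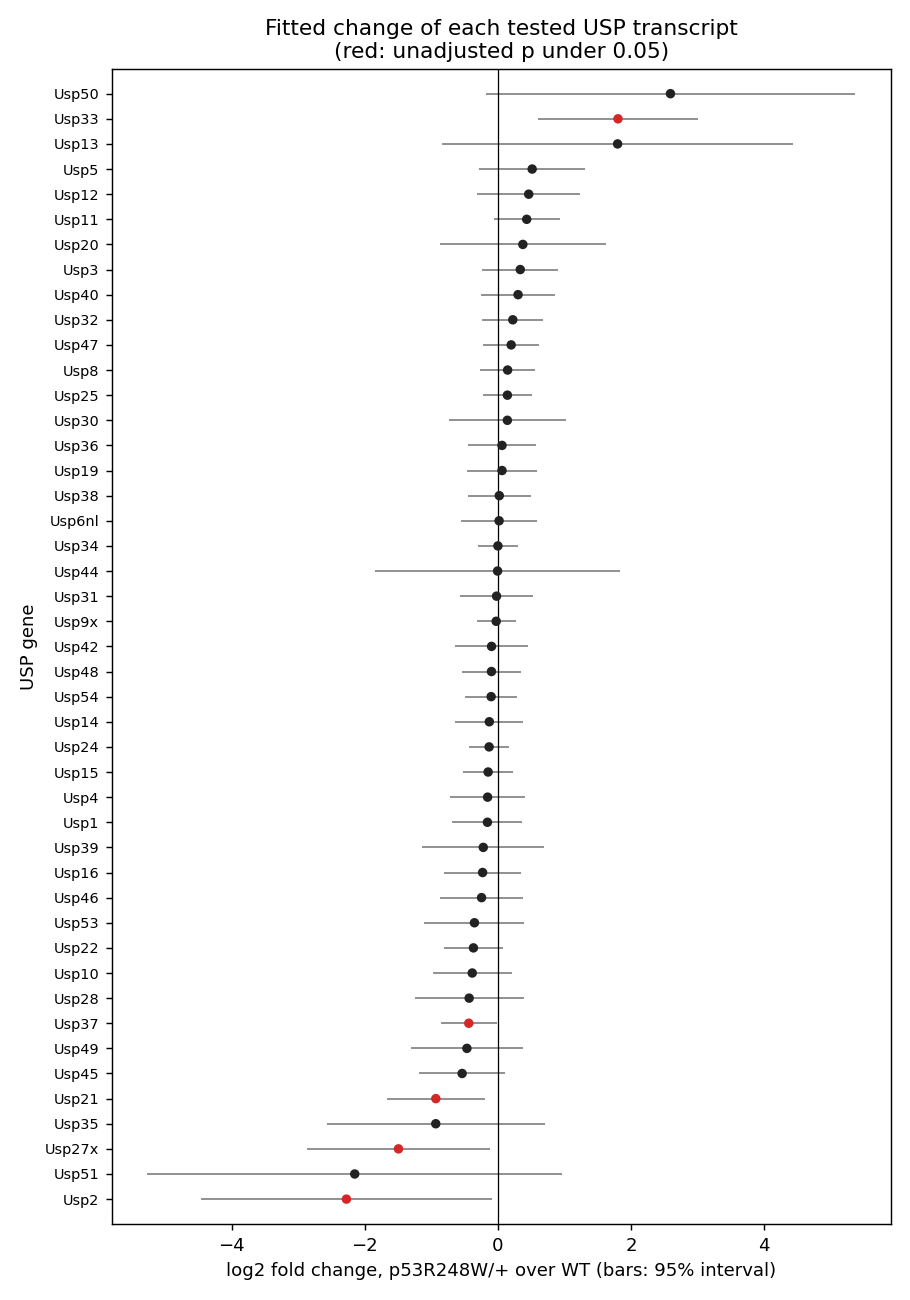
Fitted log2 fold change of p53R248W/+ over WT for the 45 tested members, with 95% intervals, 2 libraries per genotype. Red points mark the 5 members at an unadjusted p under 0.05; Usp33 (1.80) is the only one of these on the positive side, and the intervals of the low-level genes Usp50, Usp13, Usp51 and Usp2 are the widest.

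None of the deubiquitinases of histones and chromatin passed the test over all genes. Of the 8 genes in this list, all tested, 1 had a positive and 7 a negative log2 fold change, where 50% of all tested genes were negative, and the median was -0.42 against -8.8e-05. Of the 7, Usp44 and Usp49 turned positive without WT replicate 2. At an unadjusted p under 0.05, 2 were lower, where 2.86% of all tested genes were. Usp21, which removes ubiquitin from histone H2A, lies on chromosome 1 (171281953 to 171287961, minus strand) and was at 61.0 and 54.9 CPM for WT and at 32.0 and 28.5 CPM for p53R248W/+. The genotypes did not overlap and the replicates lay close together, with a log2 fold change of -0.93 ± 0.35 (SE; adjusted p = 0.824, edgeR quasi-likelihood test). It stayed between -1.02 and -0.85 with each library left out in turn.

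Usp27x, a single-exon gene on chromosome X (7372591 to 7375830, minus strand) and a relative of Usp22, was at 24.3 and 12.4 CPM for WT and at 4.38 and 9.09 CPM for p53R248W/+. The genotypes did not overlap, but the gap between the nearest WT and p53R248W/+ libraries was smaller than the gap within either genotype. The log2 fold change of -1.49 ± 0.66 (SE; adjusted p = 0.824, edgeR quasi-likelihood test) ran from -2.06 to -0.93 with single libraries left out. Usp22 itself, the deubiquitinase of the SAGA coactivator complex, was at 171 and 161 CPM for WT and at 121 and 137 CPM for p53R248W/+, a log2 fold change of -0.37 ± 0.21 (SE). Usp51, the third enzyme that shares the SAGA adaptors, had 27 and 21 counts in WT and 10 and 0 counts in p53R248W/+. The adaptor Atxn7l3, which activates these enzymes, was at 65.5 and 45.3 CPM for WT and at 24.6 and 37.5 CPM for p53R248W/+. Its log2 fold change of -0.86 ± 0.38 (SE) was also short of the threshold (adjusted p = 0.824, edgeR quasi-likelihood test). It came from a list of USP partner proteins, of which 10 were tested, with 6 positive and 4 negative log2 fold changes. In that list, 1 gene was higher and 1 lower at an unadjusted p under 0.05, where 3.01% and 2.86% of all tested genes were. Eny2 and Atxn7 of the same list had log2 fold changes of -0.19 and -0.20, with overlapping genotypes for Atxn7. Usp3, the member of the histone and chromatin list with a positive value, was at 70.0 and 66.0 CPM for WT and at 90.5 and 80.7 CPM for p53R248W/+ (log2 fold change 0.34 ± 0.27, SE). Usp44 and Usp49 had overlapping genotypes, with log2 fold changes of -0.0048 and -0.47. Usp16, an H2A enzyme studied in stem cell ageing, was at 75.9 and 92.2 CPM for WT and at 74.5 and 68.6 CPM for p53R248W/+, and 189 of its exon bases are shared with Cct8.

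Enzymes that act on p53, on Mdm2 or in the same pathway made up a list of 11, of which 10 were tested; Usp29 was at 0. Of the 10, 2 had a positive and 8 a negative log2 fold change, and the median was -0.14; 1 was lower at an unadjusted p under 0.05, where 2.86% of all tested genes were. That was Usp2, which stabilises Mdm2 and cyclin D1 (chromosome 9, 44067021 to 44095627, plus strand). Usp2 was at 15.6 CPM in WT replicate 1, and at 2.38 CPM in WT replicate 2 and 1.75 and 1.98 CPM in p53R248W/+. A single WT library was thus high: the log2 fold change of -2.27 ± 1.04 (SE; adjusted p = 0.824, edgeR quasi-likelihood test) was -0.36 without it. Usp10, which acts on p53 in the cytoplasm, was at 113 and 76.2 CPM for WT and at 67.2 and 78.4 CPM for p53R248W/+, with overlapping genotypes. Usp15, Usp4, Usp48, Usp24 and Usp42 had log2 fold changes between -0.15 and -0.10. Usp28, an interactor of 53BP1, was at 38.8 and 40.8 CPM for WT and at 24.3 and 35.4 CPM for p53R248W/+ (log2 fold change -0.43 ± 0.39, SE). The positive values were those of Usp11 (101 and 92.7 CPM in the WT libraries, 139 and 121 in the p53R248W/+ libraries, log2 fold change 0.43 ± 0.24, SE) and Usp5.

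Members of the cell cycle, nucleolus and splicing list numbered 5, all tested, with 2 positive and 3 negative log2 fold changes and a median of -0.22. Usp37, which protects cyclin A at the entry into S phase, was the only one at an unadjusted p under 0.05, where 2.86% of all tested genes were lower. It lies on chromosome 1 (74435510 to 74544286, minus strand) and was at 199.6 and 195 CPM for WT and at 149 and 143 CPM for p53R248W/+. Its replicates agreed closely and the genotypes did not overlap, for a log2 fold change of -0.44 ± 0.20 (SE; adjusted p = 0.824, edgeR quasi-likelihood test), between -0.47 and -0.41 with single libraries left out. Only 51 of its 7196 exon bases are shared with another gene, Vil1. Usp45 was at 78.7 and 64.0 CPM for WT and at 48.0 and 50.5 CPM for p53R248W/+ (log2 fold change -0.54 ± 0.31, SE). Usp47, Usp36 and the splicing factor Usp39 had overlapping genotypes.

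**Figure D4:**
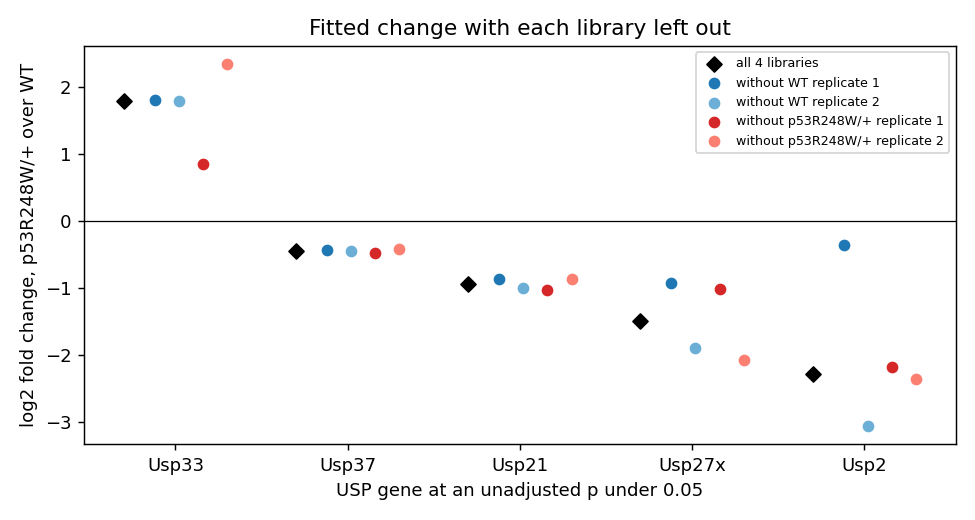
Log2 fold change of p53R248W/+ over WT for the 5 members at an unadjusted p under 0.05, fitted on all 4 libraries (black diamonds) and with each library left out in turn (coloured points). Usp37 and Usp21 change little, Usp33 is at 0.86 without p53R248W/+ replicate 1, and Usp2 moves to -0.36 without WT replicate 1.

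The enzymes that work with the activator Wdr48 were 3, all tested, and none was at an unadjusted p under 0.05. Usp1, which acts on PCNA and FANCD2 in DNA repair, was at 109 and 147 CPM for WT and at 96.9 and 134 CPM for p53R248W/+, so the spread within each genotype was wider than the difference between them. Usp12 was at 42.8 and 26.9 CPM for WT and at 48.0 and 48.1 CPM for p53R248W/+ (log2 fold change 0.46 ± 0.37, SE). Usp46 was at 84.6 and 62.5 CPM for WT and at 65.9 and 57.7 CPM for p53R248W/+.

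The 4 genes of endosomes and membrane traffic, Usp8, Usp9x, Usp32 and Usp6nl, were all tested, and their log2 fold changes lay between -0.03 and 0.22. Usp8 was at 166 and 181 CPM for WT and at 193 and 191 CPM for p53R248W/+, and Usp32 at 119 and 146 against 159 and 150 CPM. Both lay above WT in each mutant library, but neither was past the test, with log2 fold changes of 0.15 ± 0.20 and 0.22 ± 0.22 (SE). The Usp8 partner Stam2, an adaptor of endosomal sorting, was at 19.7 and 34.6 CPM for WT and at 74.7 and 70.4 CPM for p53R248W/+. Its log2 fold change was 1.42 ± 0.36 (SE), whereas that of its relative Stam was 0.03 ± 0.30 (SE). Stambp, a deubiquitinase of another family that also binds these adaptors, was at 8.16 and 10.9 CPM for WT and at 26.9 and 16.0 CPM for p53R248W/+ (log2 fold change 1.20 ± 0.56, SE). Stam2 and Stambp did not pass over all genes (each at an adjusted p of 0.824 in the quasi-likelihood test of edgeR).

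Among enzymes of mitochondria, the endoplasmic reticulum and autophagy, 4 were tested and none was at an unadjusted p under 0.05. Usp19, which acts in degradation at the endoplasmic reticulum, was at 87.9 to 108 CPM, and Usp30, which opposes the removal of mitochondria, at 23.7 to 36.6 CPM; in both, the genotypes overlapped. Usp13 had 22 and 19 counts in WT, 0 in p53R248W/+ replicate 1 and 134 in p53R248W/+ replicate 2, so its mutant libraries lay on either side of WT. Usp35 was at 8.72 and 8.28 CPM for WT and at 6.14 and 2.40 CPM for p53R248W/+.

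The enzymes of the proteasome and of free ubiquitin chains were Usp14, bound to the proteasome, and Usp5, which disassembles unanchored chains. Usp14 was at 98.6 and 126 CPM for WT and at 103 and 103 CPM for p53R248W/+. Its count is uncertain, because 1870 of its 4185 exon bases overlap Thoc1 on the opposite strand. Usp5 was at 26.9 and 29.9 CPM for WT and at 41.2 and 39.7 CPM for p53R248W/+; the genotypes did not overlap, at a log2 fold change of 0.51 ± 0.38 (SE).

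Of the 6 members of the signalling list, 5 were tested and had log2 fold changes between -0.02 and 0.30. Usp40 was highest of these, at 82.5 and 72.4 CPM for WT and at 102 and 88.5 CPM for p53R248W/+ (log2 fold change 0.30 ± 0.26, SE). The log2 fold changes of Usp25, Usp38 and Usp31 were 0.14, 0.02 and -0.02. Usp34 was at 586 and 642 CPM for WT and at 585 and 644 CPM for p53R248W/+, nearly the same pair of values in both genotypes, and 2137 of its 12200 exon bases overlap Ahsa2 on the other strand. The members regarded as having little or no activity were Usp39, Usp50, Usp53 and Usp54. Usp54 was at 198 to 232 CPM in all libraries and Usp53 at 36.2 to 54.6 CPM. Usp50 had 7 and 11 counts in WT, 11 in p53R248W/+ replicate 1 and 92 in replicate 2, so a single library was high.

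Members with a mean of at least 20 CPM (37 genes) had close replicates. The median absolute log2 ratio between replicates was 0.19 in WT and 0.17 in p53R248W/+, where all 7373 genes tested at that level gave 0.29 and 0.29. The 7373 genes were not matched to the members for level above that line, and the part of level in this gap was not tested. The median absolute log2 fold change between genotypes was 0.20 for these members and 0.21 for the 7373 genes. Only Usp33 among the 37 had an absolute log2 fold change over 1, which 1.97% of the 7373 genes had. These figures are a description, because the member that stands apart was known beforehand. The sign of the log2 fold change turned for 17 of the 45 tested members when single libraries were left out. These were Usp1, Usp4, Usp6nl, Usp9x, Usp13, Usp14, Usp19, Usp20, Usp30, Usp31, Usp34, Usp36, Usp38, Usp42, Usp44, Usp48 and Usp49.

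Genes outside the naming rule that belong to deubiquitinase families, most of them other than the USPs, were compared as background. They were listed by family and not by activity, so not all of them need cut ubiquitin. Of 40 such genes matched by symbol, 38 were tested; 17 had a positive and 21 a negative log2 fold change, and the median was -0.05. At an unadjusted p under 0.05, 2 were higher and 2 lower, where 3.01% and 2.86% of all tested genes were. The higher genes were Stambp and Otulin, which removes linear ubiquitin chains, at 4.53 and 12.2 CPM for WT and at 41.1 and 19.8 CPM for p53R248W/+ (log2 fold change 1.90 ± 0.59, SE). The lower genes were Cops5, the catalytic subunit of the COP9 signalosome, at 105 and 111 CPM for WT and at 69.7 and 52.9 CPM for p53R248W/+ (log2 fold change -0.81 ± 0.27, SE), and Zranb1, at 84.1 and 66.4 against 39.5 and 48.7 CPM (log2 fold change -0.78 ± 0.31, SE). None of the 38 passed over all genes (lowest adjusted p = 0.824, edgeR quasi-likelihood test).

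Among these genes, the 4 UCH genes Uchl1, Uchl3, Uchl5 and Bap1 had log2 fold changes between -1.11 and -0.27. All 4 were thus negative, where 50% of all tested genes were. The lowest was that of Uchl1, a scarce gene with overlapping genotypes (2.37 and 0.84 CPM for WT, 1.01 and 0.41 CPM for p53R248W/+). Bap1, an H2A deubiquitinase and tumour suppressor, was at 72.0 and 60.1 CPM for WT and at 48.9 and 49.7 CPM for p53R248W/+. Uchl5 was at 121 and 125 CPM for WT and at 92.4 and 114 CPM for p53R248W/+, and Uchl3 at 14.3 and 15.4 against 8.23 and 7.52 CPM. Log2 fold changes of Cyld, Pan2 and Uspl1, which carry the USP fold under other names, were 0.10, 0.07 and -0.04, and those of the Josephin genes Atxn3, Josd1 and Josd2 were -0.07, -0.03 and 0.06. Those of Fam63a, Fam63b and Zufsp, of the MINDY and ZUFSP families, were 0.56, 0.03 and 0.02. Those of the ubiquitin fusion gene Rps27a and of the activating enzymes Uba1 and Uba6 were -0.12, -0.08 and 0.28. No UCH, Josephin, MINDY, ZUFSP or ubiquitin gene listed was at an unadjusted p under 0.05.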

How the data were processed

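The authors deposited raw read counts per gene, with exon coordinates and exon length, for 4 libraries; the submitters' processing notes name FastQC 0.11.5, STAR 2.7.10a, featureCounts (Subread 2.0.3), edgeR 3.40.2 and build mm10. Strand and multi-mapping settings are not given in the sources used here, so overlapping genes and close copies are uncertain. RNA came from column kits and standard mRNA libraries, per the labels' protocols. Libraries held 12111126 to 14820759 counts.

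Here, genes were filtered with filterByExpr (minimum count 10, minimum total 15), scaled by TMM and compared by genotype in edgeR 4.0.16 (R 4.3.3; quasi-likelihood test, glmQLFit with robust=TRUE and legacy=FALSE), with Benjamini-Hochberg adjustment over all 13296 tested genes. SEs are the absolute log2 fold change divided by the square root of F. The fit was run on simulated counts to check the sign and rough size of large changes only. That check does not cover genes whose replicates disagree. DESeq2 1.42.0 and limma-voom (limma 3.58.1) were alternatives, as were other scalings, filters, a replicate block and each library left out; robust=FALSE, the legacy method and DESeq2 without a filter were chosen after seeing the data.

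The members and lists were chosen with earlier results of these data known. Named were Usp33, Usp20, members at an unadjusted p under 0.05, the 10 highest per kilobase, the largest change per role list, and up to 3 genes per other list; further members were named after their values were seen. Cys boxes were sought in GENCODE M21 coding sequences by an amino acid pattern of fixed spacing, taking the longest complete coding transcript that held one.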

Additional observations from a re-analysis of the deposited data

How the results depend on the processing

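The count of genes called over the whole table was 0 higher and 0 lower with both other scalings, limma-voom, no filter, the stricter filter, robust=FALSE and the legacy method. DESeq2 called 3 higher and 3 lower, the likelihood ratio test 3 and 1, and DESeq2 without a filter 5 and 8. Fits with single libraries left out are given by effect size only, because the genotype left with 1 library was assumed to vary like the other. The count of USP members called higher was 1, Usp33, in the likelihood ratio test and in DESeq2 without a filter. It was 0 in the other fits on all libraries. No fit on all libraries called a member lower.

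The Usp33 log2 fold change was 1.79 in both tests that called it and 0.86 to 2.35 with single libraries left out. The other fits on all libraries did not call it, at an adjusted p of 0.147 (limma-voom) to 0.992 (legacy method), and 0.490 with robust=FALSE. With the replicate number as a block it was 1.65 (adjusted p = 0.791, edgeR quasi-likelihood test), and the block called 0 genes higher and 0 lower. Nothing in the labels says that equal numbers share an animal or a day, and deviations of same-numbered libraries correlated at 0.013 across genes.

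Usp34 was at -0.0014 with median-ratio scaling, -5.8e-04 with DESeq2, -0.0043 with limma-voom, -0.0017 with no filter and -0.0015 with DESeq2 without a filter. Usp13 was at -1.58 with limma-voom. With single libraries left out, the values ran from -7.38 to 2.94 for Usp13, -0.072 to 0.075 for Usp34, -0.14 to 1.22 for Usp20, -0.055 to 0.0084 for Usp9x and -0.40 to 0.081 for Usp1. Signs also turned in these fits for Usp4 (-0.41 to 0.16), Usp6nl (-0.31 to 0.46), Usp14 (-0.29 to 0.066), Usp19 (-0.074 to 0.22), Usp30 (-0.23 to 0.40), Usp31 (-0.24 to 0.26), Usp36 (-0.082 to 0.23), Usp38 (-0.051 to 0.11), Usp42 (-0.39 to 0.13), Usp44 (-0.31 to 0.39), Usp48 (-0.21 to 0.031) and Usp49 (-0.88 to 0.14). Outside the family they ran from -0.19 to 0.18 for Josd1, -0.20 to 0.37 for Josd2, -0.32 to 0.16 for Atxn3, -0.19 to 0.23 for Fam63b, -0.28 to 0.41 for Zufsp, -0.30 to 0.033 for Rps27a, -1.6e-04 to 0.62 for Uba6 and -0.15 to 0.085 for Uspl1. The cause was not tested. With 2 libraries per genotype, many smaller changes could not be detected. The coefficient of variation between libraries was 46.0%, a common value of edgeR over all tested genes and not of the members. Part or all of it may be technical.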
